A study of Mus musculus with 6 samples.

Results

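The genes described here encode the enzymes, transporter, pump and channel of 2 cycles by which adipocytes can turn over ATP without net work. They are *Ckb*, *Ckmt1*, *Ckmt2*, *Gatm*, *Gamt*, *Slc6a8* and *Alpl* of the creatine cycle, and *Atp2a2* and *Ryr2* of the calcium cycle. They were chosen by gene symbol, and 9 of the 55491 genes in the deposited table are members. All 9 were among the 32664 genes that were counted at all, so none was dropped before the main test. *Ckmt1* was lost to an alternative filter, a minimum of 10 counts in every library.

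In the creatine cycle, a creatine kinase moves a phosphate from ATP to creatine, and a phosphatase releases it again, so that ADP is returned to the mitochondrion and heat is produced. Creatine itself is made by GATM and GAMT or imported by SLC6A8. In the calcium cycle, the SERCA pump spends ATP to load calcium into the endoplasmic reticulum, and ryanodine or IP3 receptors let it leak back. Both cycles have been studied in brown and beige adipocytes as sources of heat that do not need UCP1, the mitochondrial uncoupling protein, and both are also basic parts of skeletal muscle.

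RNA was taken from the inguinal white adipose tissue (IWAT, a subcutaneous fat depot) of 4-week-old male mice on regular chow, an age chosen in the study to precede visible damage to the tissue. The control group was 3 *Ebf2*+/+ mice and the other group 3 *Ebf2* E165X/+ mice, which carry 1 allele with a premature stop codon in *Ebf2*, a transcription factor of adipocyte precursors and beige and brown adipocytes. The labels name C57BL/6J for both genotypes, and the study's main methods give that background for the mice in which CRISPR/Cas9 made the allele. Its supplemental methods instead describe zygotes of hybrid mice, with founders then bred to C57BL/6J. The allele is present from conception in every cell, the tissue was sequenced whole, and the number of founder lines and the litters of these mice were not given in the sources used here. Each mouse gave 1 library, and total counts ran from 106820505 to 135039488 per library. Levels are given in CPM, the count per 1000000 counts of a library, with library sizes scaled by TMM (trimmed mean of M values) factors.

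Adipocyte markers were abundant in every library, with *Adipoq*, which encodes adiponectin, between 820 and 1303 CPM. 1 library stood apart. A list of 11 fast skeletal muscle genes took 0.167%, 0.698% and 0.269% of counts in *Ebf2*+/+ mice 1, 2 and 3. It took 0.309%, 0.0743% and 3.85% in *Ebf2* E165X/+ mice 1, 2 and 3. Muscle RNA was therefore present in all 6 libraries and most abundant by far in *Ebf2* E165X/+ mouse 3. *Myh4*, a fast myosin heavy chain, had the most counts of the list over the 6 libraries together, though *Acta1*, skeletal muscle actin, was above it in *Ebf2* E165X/+ mice 1 and 3, and none of the 11 was at 0. The group means, 0.378% ± 0.282 (SD, n = 3) and 1.41% ± 2.12 (SD, n = 3), could not be told apart in a two-sided exact permutation test (*P* = 0.8, where 3 mice against 3 cannot give less than 0.1). Without mouse 3, the mean of the other *Ebf2* E165X/+ libraries was 0.192%. The fold changes of the 9 genes are therefore given with and without that library.

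None of the 9 genes differed between the genotypes by the criteria used, which were a fold change over 1.5 and an adjusted *P* below 0.05 in edgeR's quasi-likelihood test. Over all genes tested, 0.00918% were called. At an unadjusted *P* under 0.05 the count was also 0 of 9, beside 4.77% of all genes. DESeq2 and limma-voom each called 0 of the 9 as well, beside 0.61% of the 16078 genes to which DESeq2 gave an adjusted *P* and 0.0122% of all genes, and each gave 0 of 9 at an unadjusted *P* under 0.05, beside 4.87% and 5.38%. DESeq2 gave no adjusted *P* for *Ckmt1*, the gene with the fewest counts. Without *Ebf2* E165X/+ mouse 3, edgeR called 0 of the 9, beside 0.0343% of all genes, and 1, *Alpl*, had an unadjusted *P* under 0.05, beside 5.33%. The genotypes separated without overlap for 0 of the 9 genes, beside 10.8% of all genes. With 9 genes, a count of 0 cannot be told from that share. The median log2 fold change of the 9 genes, *Ebf2* E165X/+ against *Ebf2*+/+, was 0.15, with 6 above 0 and 3 below, and the median of all genes was 0.01. Without *Ebf2* E165X/+ mouse 3 it was −0.21, with 2 above 0, beside −0.01 for all genes. The sign of 4 genes, *Ckmt2*, *Gamt*, *Slc6a8* and *Atp2a2*, turned when that library was left out.

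**Figure D1:**
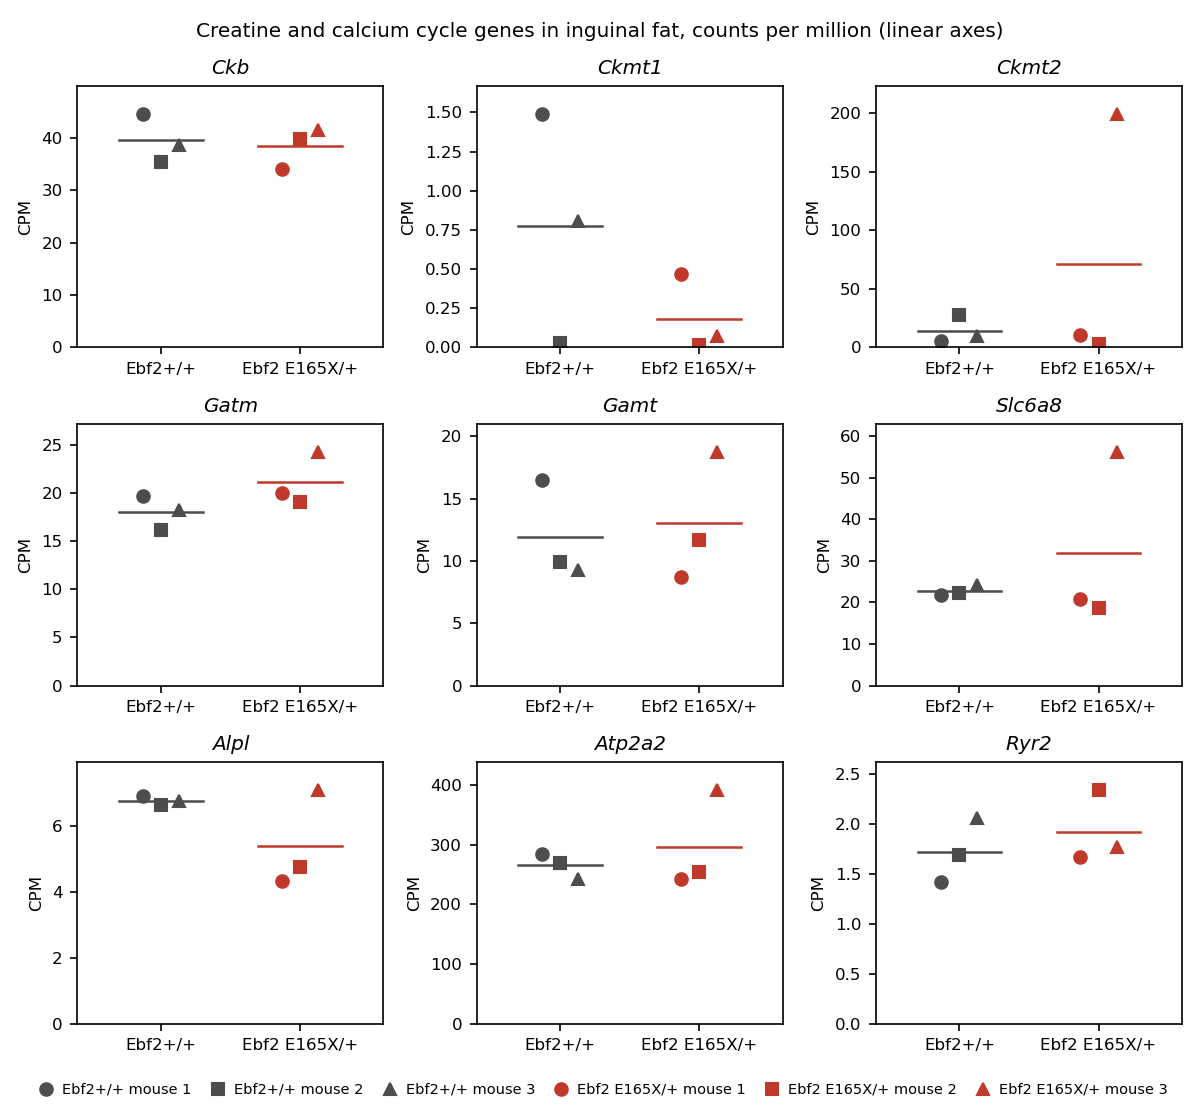
Level of each of the 9 genes in CPM (linear axes from 0), with 1 point per mouse, a shape for each mouse number and a line at the mean of each genotype (n = 3). *Ebf2* E165X/+ mouse 3 is the highest point for *Ckmt2* (199 CPM), *Slc6a8* (56.1 CPM) and *Atp2a2* (391.5 CPM), whereas *Ckb* lies between 34.1 and 44.6 CPM in all 6 mice.

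**Figure D2:**
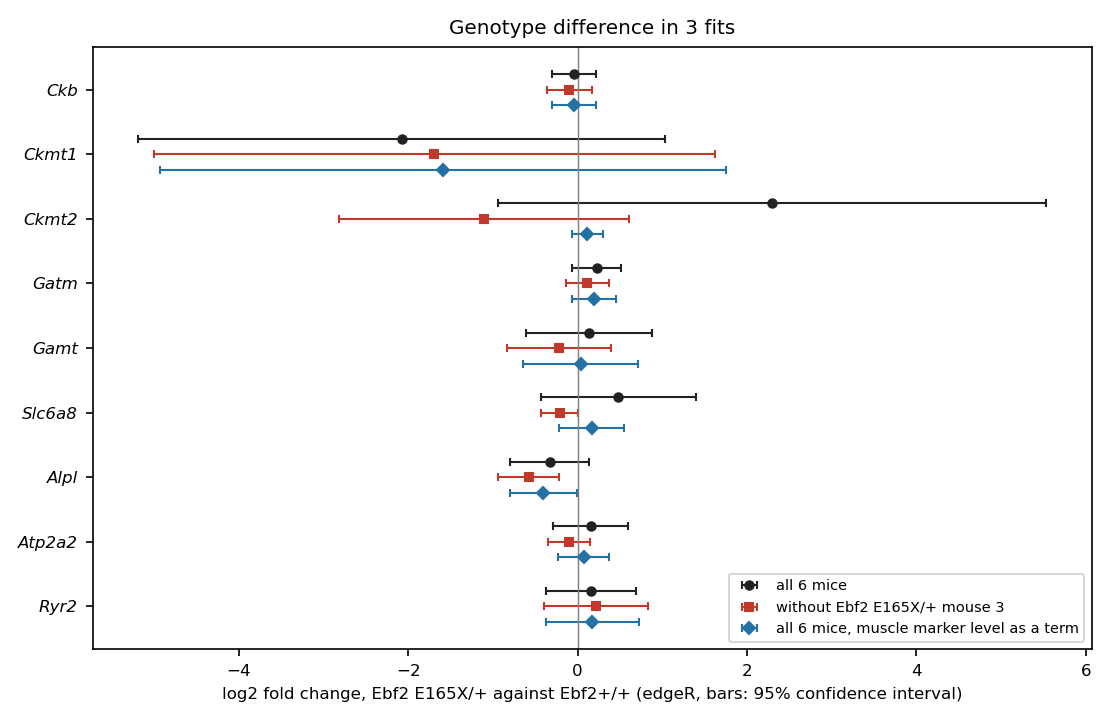
Log2 fold change of each gene, *Ebf2* E165X/+ against *Ebf2*+/+, with its 95% confidence interval from edgeR in 3 fits: all 6 mice, all but *Ebf2* E165X/+ mouse 3, and all 6 with the muscle marker level as a term. The interval of *Ckmt2* runs from −0.94 to 5.53 over all 6 mice, and that of *Alpl* lies below 0 only without mouse 3 and with the muscle term.

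Scaled for exon length, *Atp2a2* was the most abundant of the 9 genes in *Ebf2*+/+ IWAT at 43.7 ± 3.49 CPM per kb (SD, n = 3). *Ckb* followed at 13.7 ± 1.61, *Ckmt2* at 9.72 ± 7.96, *Gamt* at 8.23 ± 2.77 and *Gatm* at 6.01 ± 0.602 CPM per kb. *Ckmt2*, between 3.98 and 18.8 CPM per kb, overlapped *Ckb*, *Gamt*, *Gatm* and *Slc6a8*, and *Gamt* overlapped *Gatm*. *Ckb*, at 12.2 CPM per kb or more, stayed above *Gamt*, at 11.4 or less, and *Gatm*, at 6.57 or less. *Slc6a8* at 4.37 ± 0.238 and *Alpl* at 1.68 ± 0.0310 CPM per kb lay clear of the genes next to them in the order. *Ckmt1* at 0.311 ± 0.293 and *Ryr2* at 0.0598 ± 0.0112 CPM per kb came last and overlapped. For libraries made from 3′ ends, which the study's methods name and the labels do not, counts do not grow with length, and this order would then not hold.

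*Ckb* encodes the cytosolic brain-type creatine kinase, the main candidate for phosphorylating creatine in thermogenic adipocytes (chr12:111669361-111672338, minus strand). It was the creatine kinase whose level varied least. *Ckb* measured 44.6, 35.4 and 38.7 CPM in *Ebf2*+/+ mice 1 to 3. It measured 34.1, 39.8 and 41.5 CPM in *Ebf2* E165X/+ mice 1 to 3. The groups interleaved, and the highest mouse was 1.31 times the lowest. The log2 fold change was −0.04 (SE 0.11, 95% confidence interval −0.30 to 0.22, edgeR adjusted *P* = 0.934), an interval that spans 0.813-fold to 1.16-fold, and it was −0.10 (SE 0.11) without *Ebf2* E165X/+ mouse 3. *Ckb* in *Ebf2* E165X/+ mouse 3 was 1.08 times the mean of the other 5 mice, although its muscle share was far above theirs.

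*Ckmt1* encodes the ubiquitous mitochondrial creatine kinase (chr2:121357714-121363737, plus strand), and it was close to the limit of detection in some mice. *Ckmt1* had 179, 3 and 100 counts in *Ebf2*+/+ mice 1 to 3. It had 54, 2 and 9 counts in *Ebf2* E165X/+ mice 1 to 3. Both genotypes thus held a mouse with almost no *Ckmt1*, and the groups overlapped. The fitted log2 fold change was −2.08 with an SE of 1.33 (95% confidence interval −5.19 to 1.03, edgeR adjusted *P* = 0.783), so neither a large fall nor a moderate rise lay outside the interval. Without *Ebf2* E165X/+ mouse 3 it was −1.69 (SE 1.43, adjusted *P* = 0.861). The genes that followed *Ckmt1* most closely over the 6 libraries, chosen from 18905 genes whose count was 10 or more throughout, were *Dmkn*, *Cdh1* and *Ntn3* (Pearson *r* of log2 CPM 0.995, 0.990 and 0.989). *Dmkn* encodes dermokine, a product of the epidermis, and *Cdh1* encodes the epithelial adhesion protein E-cadherin.

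Keratins of stratified epithelium moved with *Ckmt1* from mouse to mouse. *Krt5* measured 50.3, 0.0474 and 22.2 CPM in *Ebf2*+/+ mice 1 to 3. In *Ebf2* E165X/+ mice 1 to 3 *Krt5* measured 17.0, 0.224 and 0.00781 CPM. Mice with more *Ckmt1*, that is *Ebf2*+/+ mice 1 and 3 and *Ebf2* E165X/+ mouse 1, were those with *Krt5* above 10 CPM. *Krt14* was likewise at 17.0, 9.87 and 8.23 CPM in those 3 mice and at 1.23 CPM or less in the others. *Epcam* varied less, between 1.03 and 1.98 CPM, and was also higher in the same 3 mice. *Krt8* and *Krt18*, keratins of simple epithelia, did not follow this pattern and were highest in *Ebf2* E165X/+ mouse 3, at 2.25 and 1.01 CPM. The summed share of the 5 epithelial markers was 0.00668%, 0.000190% and 0.00345% of counts in *Ebf2*+/+ mice and 0.00289%, 0.000165% and 0.000551% in *Ebf2* E165X/+ mice, and no marker was at 0 in all libraries. The part of epithelial RNA in the *Ckmt1* counts was not tested.

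**Figure D3:**
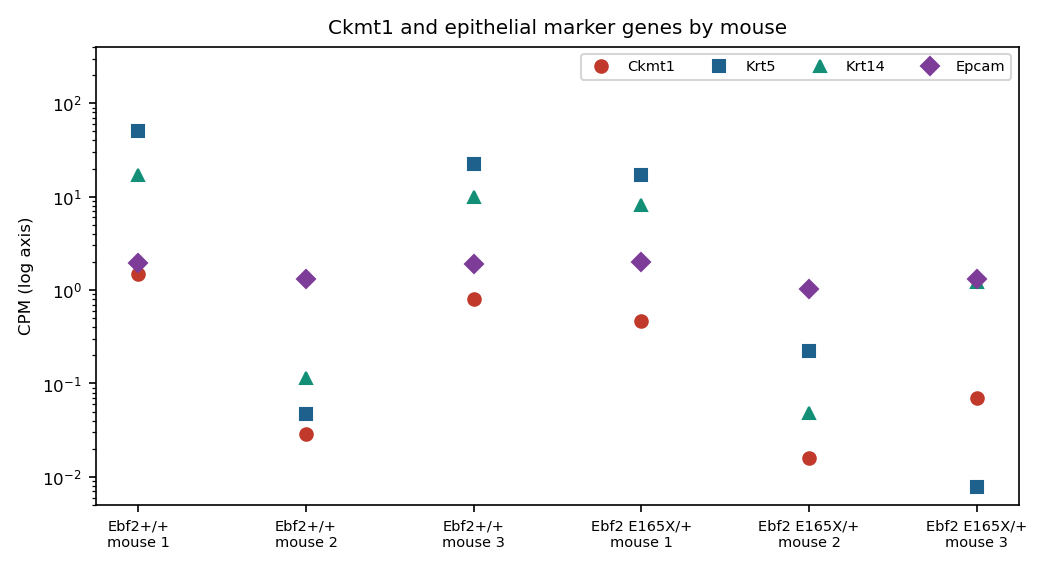
*Ckmt1* and the epithelial markers *Krt5*, *Krt14* and *Epcam* in each mouse, in CPM on a log axis. *Ckmt1* is highest in *Ebf2*+/+ mice 1 and 3 and *Ebf2* E165X/+ mouse 1, where *Krt5* lies between 17.0 and 50.3 CPM.

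*Ckmt2* encodes the sarcomeric mitochondrial creatine kinase of heart and skeletal muscle (chr13:91853387-91876885, minus strand), and it had the widest range of the members other than *Ckmt1*. *Ckmt2* measured 5.91, 27.9 and 9.47 CPM in *Ebf2*+/+ mice 1 to 3. It measured 10.7, 2.72 and 199 CPM in *Ebf2* E165X/+ mice 1 to 3. The *Ebf2* E165X/+ group thus held both the lowest and the highest mouse. The log2 fold change was 2.30 over all 6 mice (SE 1.39, 95% confidence interval −0.94 to 5.53, edgeR adjusted *P* = 0.783) and −1.11 without *Ebf2* E165X/+ mouse 3 (SE 0.74, adjusted *P* = 0.861). With the mean log2 CPM of the fast muscle markers as a term in the model, it was 0.11 (SE 0.080, adjusted *P* = 0.898). From limma-voom over all 6 mice it was 0.67 (SE 1.52).

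*Ckmt2* kept a nearly fixed ratio to *Ckm*, the cytosolic muscle creatine kinase, in both genotypes. Per 1000 counts of *Ckm* there were 36.5, 39.5 and 36.7 counts of *Ckmt2* in *Ebf2*+/+ mice 1 to 3. In *Ebf2* E165X/+ mice 1 to 3 there were 38.8, 39.4 and 50.5. Among the 5 mice other than *Ebf2* E165X/+ mouse 3, the highest of these ratios was 1.08 times the lowest, while the *Ckmt2* level itself varied 10.3-fold. The calcium pump and channel of fast muscle also kept their ratio, with 1640 to 2052 counts of *Atp2a1* and 199 to 297 of *Ryr1* per 1000 of *Ckm* over all 6 mice, whereas *Sln*, which encodes sarcolipin, ranged from 0.497 to 3.81. *Ckb* by contrast ranged from 10.5 to 577 and *Atp2a2* from 99.4 to 3672 per 1000 of *Ckm*. The genes closest to *Ckmt2* over the 6 libraries were *Yipf7* and *Ampd1*, which encodes the muscle AMP deaminase (Pearson *r* of log2 CPM 0.999 for each). In whole tissue, a smaller number of cells of a type and less RNA per cell cannot be told apart, and no *Ckmt2* of adipocytes could be separated from that of muscle in these libraries.

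**Figure D4:**
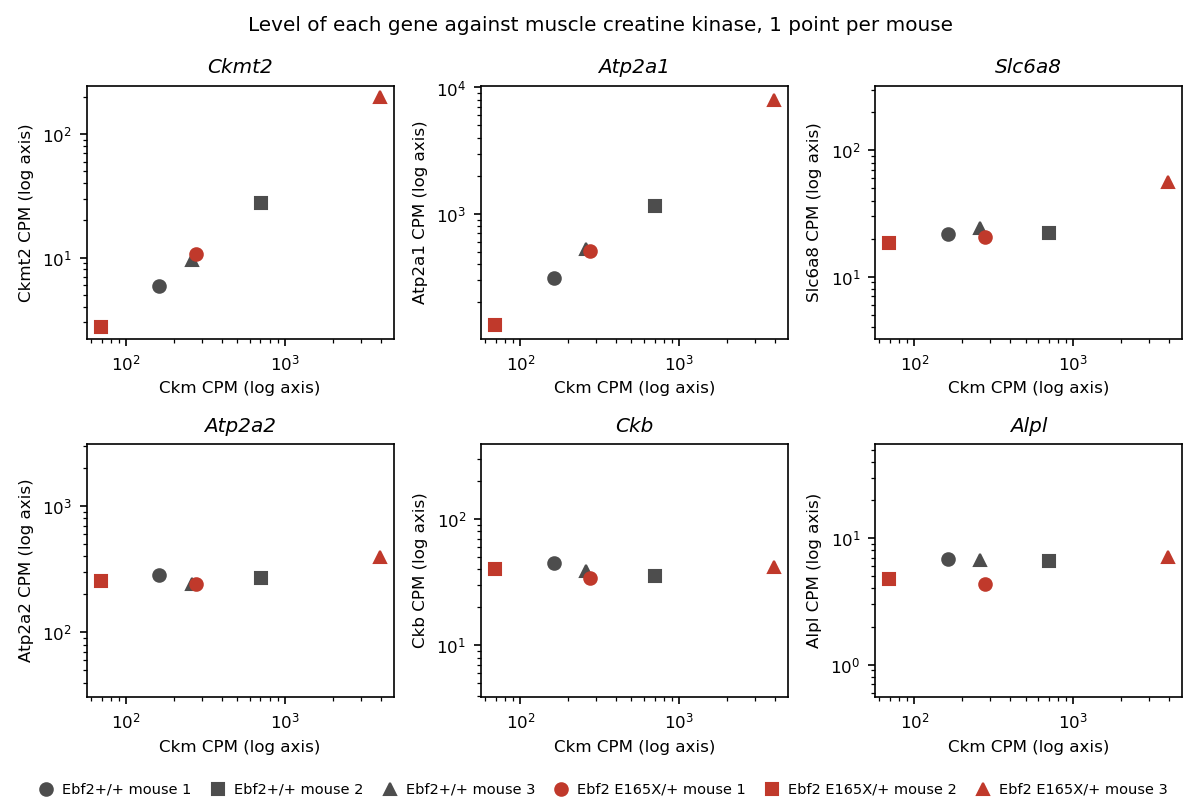
Level of 6 genes against *Ckm*, the muscle creatine kinase, in CPM on log axes, with 1 point per mouse. *Ckmt2* and *Atp2a1* lie on a line through both genotypes, *Slc6a8* and *Atp2a2* have 1 high point, *Ebf2* E165X/+ mouse 3, and *Ckb* and *Alpl* show no such line.

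Because *Ckm* and *Ckmt2* moved together and *Ckb* did not, the 250 bases before the annotated start of these 3 genes are printed, from RefSeq on GRCm38.p6. Capitals mark CAGCTG, a sequence that muscle regulatory factors can bind, and the palindrome that EBF factors can bind.
Ckm, chr7:19410844-19411093, plus strand: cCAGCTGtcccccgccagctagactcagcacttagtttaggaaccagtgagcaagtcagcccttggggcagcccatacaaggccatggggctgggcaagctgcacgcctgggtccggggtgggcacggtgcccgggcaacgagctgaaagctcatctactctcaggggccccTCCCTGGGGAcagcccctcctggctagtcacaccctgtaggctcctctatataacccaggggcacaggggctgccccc
Ckmt2, chr13:91876886-91877135, minus strand: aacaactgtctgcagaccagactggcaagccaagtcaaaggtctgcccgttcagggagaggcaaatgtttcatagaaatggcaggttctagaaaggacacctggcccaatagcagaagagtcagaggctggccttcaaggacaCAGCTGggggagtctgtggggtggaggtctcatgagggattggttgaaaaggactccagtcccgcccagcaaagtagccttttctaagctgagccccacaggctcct
Ckb, chr12:111672339-111672588, minus strand: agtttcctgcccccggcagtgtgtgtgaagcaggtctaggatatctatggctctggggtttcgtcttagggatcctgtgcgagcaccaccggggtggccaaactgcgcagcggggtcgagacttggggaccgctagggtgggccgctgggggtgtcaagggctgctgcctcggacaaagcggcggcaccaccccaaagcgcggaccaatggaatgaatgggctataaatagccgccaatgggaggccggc
CAGCTG occurred in the *Ckm* sequence, with its first base at −249 from the start, and in the *Ckmt2* sequence at −107, but not in that of *Ckb*. It was searched for on both strands after the values had been seen, and 13% of the 32851 mouse promoters in the reference hold it in these 250 bases. The EBF palindrome occurred in the *Ckm* sequence as TCCCTGGGGA at −78 and in 0.779% of all promoters.

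Promoters of 7 of the 9 members, 9 in all, were in the reference, with none for *Slc6a8* or *Atp2a2*. In the window of 250 bases before to 50 bases after the start, the EBF palindrome occurred in 0 of these 9, beside 0.904% of all promoters. The direct repeat that PPAR and RXR dimers can bind also occurred in 0 of the 9, beside 0.0396% of all. Of the 9, CAGCTG occurred in the 250 bases before the start of 2, that of *Ckmt2* and a promoter of *Alpl*, the latter at −176. In the longer window it also occurred at the start of *Ckmt1*, at −1, making 3 of the 9, beside 16.3% of all promoters. These are matches of letters in a short window, and binding was not measured here.

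The creatine kinase RNA of these samples was mostly *Ckm*, which made up 60.3% to 90.1% of the counts per kb of *Ckb*, *Ckm*, *Ckmt1* and *Ckmt2*. *Ckb* made up 20.4%, 4.47% and 12.3% of that sum in *Ebf2*+/+ mice 1 to 3. In *Ebf2* E165X/+ mice 1 to 3 its share was 10.3%, 35% and 0.955%. The group means were 12.4% ± 7.96 and 15.4% ± 17.6 (SD, n = 3 each), with a two-sided exact permutation *P* of 0.9. The *Ebf2* E165X/+ mean was 22.7% without mouse 3 and 5.65% without mouse 2, so the direction rests on single mice, and it was also reversed on the log2 scale (−0.57). The order of the mice by this share was the reverse of their order by *Ckm*, the largest part of the sum itself. *Ckm* measured 162, 707 and 258 CPM in *Ebf2*+/+ mice and 276, 69.1 and 3939.7 CPM in *Ebf2* E165X/+ mice. With *Ckm* in the sum and *Ckb* nearly level, this order is no separate result.

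Both enzymes of creatine synthesis were detected in every mouse, *Gatm* within a 1.5-fold range and *Gamt* within a 2.16-fold range. *Gatm* encodes the mitochondrial amidinotransferase that makes guanidinoacetate, the precursor of creatine (chr2:122594467-122611303, minus strand). *Gatm* measured 19.7, 16.1 and 18.3 CPM in *Ebf2*+/+ mice and 19.98, 19.0 and 24.2 CPM in *Ebf2* E165X/+ mice 1 to 3. The groups overlapped because *Ebf2* E165X/+ mouse 2 was below *Ebf2*+/+ mouse 1. *Gatm* had a log2 fold change of 0.23 (SE 0.12, 95% confidence interval −0.06 to 0.51, edgeR adjusted *P* = 0.783), or 0.11 (SE 0.11) without *Ebf2* E165X/+ mouse 3.

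*Gamt* encodes the methyltransferase that completes creatine synthesis (chr10:80258151-80261012, minus strand), and it varied more than *Gatm* within each genotype. *Gamt* measured 16.5, 9.94 and 9.24 CPM in *Ebf2*+/+ mice 1 to 3. It measured 8.68, 11.7 and 18.7 CPM in *Ebf2* E165X/+ mice 1 to 3. Each genotype had 1 mouse above 16 CPM and the others below 12, so the groups interleaved. Its log2 fold change was 0.13 (SE 0.32, 95% confidence interval −0.61 to 0.88, edgeR adjusted *P* = 0.924) and −0.22 (SE 0.26) without *Ebf2* E165X/+ mouse 3.

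*Slc6a8* encodes the creatine transporter of the plasma membrane, which muscle depends on for its creatine (chrX:73673150-73682502, plus strand). *Slc6a8* measured 21.9, 22.2 and 24.2 CPM in *Ebf2*+/+ mice 1 to 3. It measured 20.7, 18.6 and 56.1 CPM in *Ebf2* E165X/+ mice 1 to 3. *Ebf2* E165X/+ mouse 3 was 2.61 times the mean of the other 5, while mice 1 and 2 lay below all *Ebf2*+/+ mice. For *Slc6a8* the log2 fold change was 0.48 (SE 0.39, 95% confidence interval −0.43 to 1.39, edgeR adjusted *P* = 0.783). Without mouse 3 it was −0.21 (SE 0.094, edgeR adjusted *P* = 0.861, DESeq2 adjusted *P* = 0.478). *Slc6a8* and *Alpl* were the 2 members, both lower, whose groups did not overlap without that mouse, beside 10.5% of all genes that were lower without overlap. The gene closest to *Slc6a8* over the 6 libraries was *Ankrd28* (Pearson *r* of log2 CPM 0.997). The muscle share was 3.85% in the library with the high *Slc6a8* value, and with the muscle marker level as a term the log2 fold change was 0.16 (SE 0.17, edgeR adjusted *P* = 0.898).

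*Alpl* encodes tissue-nonspecific alkaline phosphatase, which can hydrolyse phosphocreatine and so closes the creatine cycle (chr4:137741733-137796384, minus strand). *Alpl* was steady in the control mice, at 6.90, 6.65 and 6.76 CPM in *Ebf2*+/+ mice 1 to 3. It measured 4.33, 4.74 and 7.09 CPM in *Ebf2* E165X/+ mice 1 to 3. *Ebf2* E165X/+ mice 1 and 2 were below every control mouse, and mouse 3 was above them all. *Alpl* had a log2 fold change of −0.33 over all 6 mice (SE 0.20, 95% confidence interval −0.80 to 0.14, edgeR adjusted *P* = 0.783). Without mouse 3 it was −0.58 (SE 0.15, 95% confidence interval −0.94 to −0.22, edgeR adjusted *P* = 0.581), so *Alpl* still did not pass after adjustment over all genes. DESeq2 on the same 5 libraries called *Alpl* (log2 fold change −0.59, SE 0.12, adjusted *P* = 0.000134), the single call among the fits run for the 9 genes. That fit called 0.923% of the genes it tested. With the muscle marker level as a term, the log2 fold change was −0.41 (SE 0.17, edgeR adjusted *P* = 0.877). The gene closest to *Alpl* over the 6 libraries was *Faf1* (Pearson *r* of log2 CPM 0.990), which encodes an adaptor of protein degradation.

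*Phospho1*, a phosphatase for phosphocholine and phosphoethanolamine that acts together with *Alpl* in mineralizing bone, had the same order of groups and is named after its values were seen. *Phospho1* measured 20.6, 23.2 and 24.7 CPM in *Ebf2*+/+ mice 1 to 3. It measured 8.83, 4.73 and 32.8 CPM in *Ebf2* E165X/+ mice 1 to 3. As with *Alpl*, *Ebf2* E165X/+ mice 1 and 2 were below all controls and mouse 3 above them. *Phospho1* had a log2 fold change of −0.56 over all 6 mice (SE 0.61, edgeR adjusted *P* = 0.798), and without mouse 3 it was −1.75 (SE 0.25, edgeR adjusted *P* = 0.144). DESeq2 called *Phospho1* without mouse 3 (adjusted *P* = 5.28e-09) and not with it (adjusted *P* = 0.898). With the muscle marker level as a term, the log2 fold change of *Phospho1* was −1.28 (SE 0.20, edgeR adjusted *P* = 0.153). The part of muscle RNA in the values of *Alpl* and *Phospho1* in mouse 3 was not tested.

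The list of other creatine genes held 7 names for 6 genes, since *Alpg* is a synonym of *Alppl2*, and 4 of them had a count. 0 of these 4 were called or had an unadjusted *P* under 0.05 in edgeR, DESeq2 or limma-voom over all 6 mice, a list too short to set against the 4.77%, 4.87% and 5.38% of all genes with such a *P*. *Slc16a12*, a creatine exporter of the monocarboxylate transporter family, was level at 9.999 ± 1.37 CPM in *Ebf2*+/+ and 9.97 ± 1.04 CPM in *Ebf2* E165X/+ IWAT (SD, n = 3 each). The alkaline phosphatase genes *Alpi* and *Alppl2* had 0 counts in every library, which allows up to 3 counts per library by counting error alone, and *Akp3* had 1 count in each of 2 *Ebf2* E165X/+ libraries. *Alpl* was therefore the only gene among the alkaline phosphatases examined with more than 1 count in a library.

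**Figure D5:**
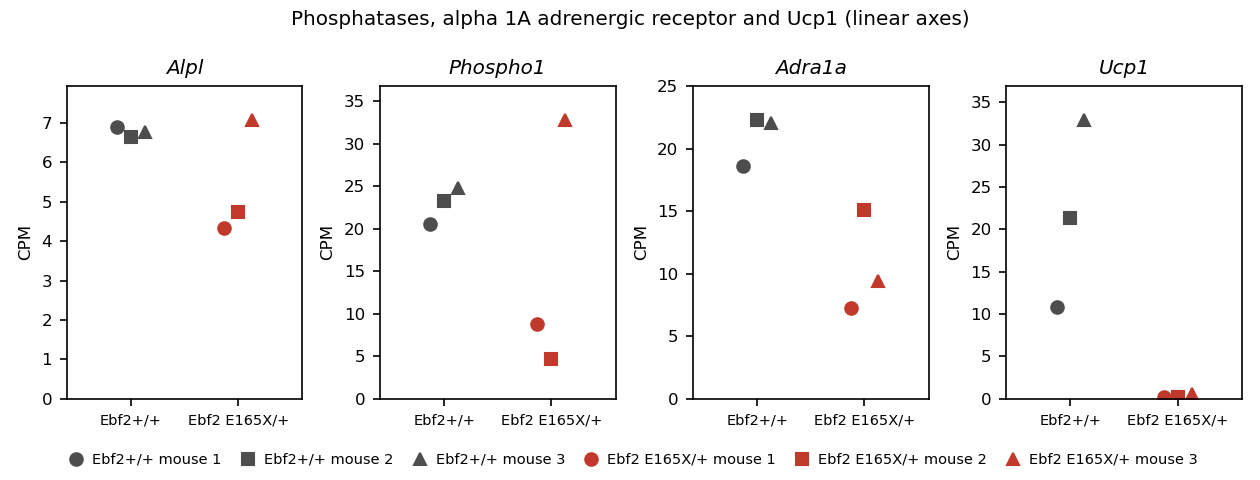
*Alpl*, *Phospho1*, *Adra1a* and *Ucp1* in CPM (linear axes from 0), with 1 point per mouse. *Ebf2* E165X/+ mouse 3 lies above the control mice for *Alpl* (7.09 CPM) and *Phospho1* (32.8 CPM) and below them for *Adra1a* (9.41 CPM) and *Ucp1* (0.617 CPM).

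*Atp2a2* encodes SERCA2, the calcium pump of the endoplasmic reticulum in most cells and of the sarcoplasmic reticulum in heart and slow muscle (chr5:122453513-122502225, minus strand). *Atp2a2* measured 285, 270 and 243 CPM in *Ebf2*+/+ mice 1 to 3. It measured 243, 254 and 391.5 CPM in *Ebf2* E165X/+ mice 1 to 3. All mice but *Ebf2* E165X/+ mouse 3 lay within 1.17-fold of each other. Between the genotypes the log2 fold change was 0.15 (SE 0.19, 95% confidence interval −0.29 to 0.60, edgeR adjusted *P* = 0.827), and −0.10 without that mouse (SE 0.11, adjusted *P* = 0.861). The genes closest to *Atp2a2* over the 6 libraries were *Dmpk*, the myotonic dystrophy protein kinase of muscle, *Abcf2* and *Atl2*. Their Pearson *r* of log2 CPM was 0.996, 0.995 and 0.995. In *Ebf2* E165X/+ mouse 3, 6 slow and cardiac muscle genes, of which *Myh7* was the most abundant, took 0.0649% of counts, against 0.00133% to 0.0153% in the other mice. With the fast muscle marker level as a term, the log2 fold change of *Atp2a2* was 0.07 (SE 0.13, edgeR adjusted *P* = 0.948), and the part of slow muscle was not tested.

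*Atp2a1*, the pump of fast muscle, made up 35.2% to 96.3% of the counts per kb of the 3 SERCA genes and was below *Atp2a2* in *Ebf2* E165X/+ mouse 2, the mouse with the least muscle RNA. *Atp2a2* made up 30.6%, 11.1% and 18.5% in *Ebf2*+/+ mice 1 to 3. In *Ebf2* E165X/+ mice 1 to 3 it made up 18.9%, 38.7% and 2.701%. The group means were 20.1% ± 9.86 and 20.1% ± 18.0 (SD, n = 3 each), with a two-sided exact permutation *P* of 1.0. The *Ebf2* E165X/+ mean was 28.8% without mouse 3 and 10.8% without mouse 2, and the difference was below 0 on the log2 scale (−0.56) and from counts not scaled by length (−2.16 percentage points). *Atp2a3*, the SERCA3 gene known from blood and endothelial cells, measured 93.6, 117 and 125 CPM in *Ebf2*+/+ mice and 129, 149 and 126 CPM in *Ebf2* E165X/+ mice. Its groups did not overlap, but the log2 fold change of 0.27 did not pass (SE 0.12, edgeR adjusted *P* = 0.783). *Sln*, the SERCA inhibitor sarcolipin, was at 2.26 CPM in *Ebf2* E165X/+ mouse 3 and at 0.0721 to 0.616 CPM in the other mice.

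*Ryr2* encodes the calcium release channel of heart muscle and was the least abundant member per kb (chr13:11553102-12106945, minus strand). *Ryr2* measured 1.42, 1.69 and 2.06 CPM in *Ebf2*+/+ mice 1 to 3. It measured 1.67, 2.34 and 1.76 CPM in *Ebf2* E165X/+ mice 1 to 3. The groups overlapped, with counts between 170 and 292 per library. Its log2 fold change was 0.16 (SE 0.23, 95% confidence interval −0.37 to 0.69, edgeR adjusted *P* = 0.857) and 0.22 (SE 0.27) without *Ebf2* E165X/+ mouse 3. Unlike *Ckmt2*, *Ryr2* was not raised in the muscle-rich library, where it was 0.962 times the mean of the other mice. *Ryr1*, the channel of skeletal muscle, made up 81.9% to 99.6% of ryanodine receptor counts per kb, and *Ryr2* 0.133% to 8.76%. Of the 6 heart muscle markers, *Myh6* measured 0.0832 to 0.218 CPM in *Ebf2*+/+ mice and 1.17, 0.424 and 14.3 CPM in *Ebf2* E165X/+ mice 1 to 3. *Myh6* did not pass in edgeR (log2 fold change 5.03, SE 1.33, edgeR adjusted *P* = 0.783). edgeR called 0 of the 6 and DESeq2 1, beside 0.00918% and 0.61% of the genes they adjusted over. The log2 fold change was above 0 for 5 of them and below 0 for 1, *Nppa* (−0.61). At an unadjusted *P* under 0.05 in edgeR, 2 of the 6 were higher, beside 1.68% of all genes. The same 2, *Myh6* and *Myl7*, were higher without overlap, beside 5.09% of all genes. *Myl7* was near the limit of detection, with 2, 0 and 3 counts in *Ebf2*+/+ mice 1 to 3 and 7 in each *Ebf2* E165X/+ mouse.

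The wider machinery of calcium handling comprised 35 other genes of the reticulum, the plasma membrane and the mitochondrion. edgeR called 0 of them, DESeq2 called 1 and limma-voom 0, where they called 0.00918%, 0.61% and 0.0122% of the genes they adjusted over. At an unadjusted *P* under 0.05 in edgeR there were 6, of which 4 were lower and 2 higher in *Ebf2* E165X/+ IWAT, where 3.09% and 1.68% of all genes were lower and higher. With the creatine list included, this count of 6 was 4, 3 and 7 without *Ebf2*+/+ mouse 1, 2 and 3 in turn. It was 3, 14 and 9 without *Ebf2* E165X/+ mouse 1, 2 and 3 in turn, and 11 with the muscle term. Over all genes, 1557 had an unadjusted *P* under 0.05 with all 6 mice, and 1836 with the muscle term. The count over all genes was 1051, 1284 and 1735 without *Ebf2*+/+ mouse 1, 2 and 3 in turn. It was 1673, 1758 and 1711 without *Ebf2* E165X/+ mouse 1, 2 and 3 in turn. The genotypes did not overlap for 7 genes, 4 lower and 3 higher, beside 5.75% and 5.09% of all genes. Without *Ebf2* E165X/+ mouse 3, 9 were lower and 4 higher without overlap, beside 10.5% and 10.7% of all genes. The median log2 fold change of the 35 was 0.20 with all 6 mice, 25 of them above 0, and −0.12 without *Ebf2* E165X/+ mouse 3, 10 of them above 0.

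The call of DESeq2 was *Adra1a*, the alpha 1A adrenergic receptor, which couples to IP3 and calcium release. *Adra1a* measured 18.6, 22.4 and 22.0 CPM in *Ebf2*+/+ mice 1 to 3. It measured 7.30, 15.1 and 9.41 CPM in *Ebf2* E165X/+ mice 1 to 3. All *Ebf2* E165X/+ mice were below all controls, mouse 3 included. The log2 fold change was −0.98 (SE 0.25, 95% confidence interval −1.57 to −0.40, edgeR adjusted *P* = 0.783), and DESeq2 gave an adjusted *P* of 0.00732. Without mouse 3, the DESeq2 adjusted *P* was 0.0692, no longer past the threshold, and the log2 fold change was −0.91. *Adra1b*, the alpha 1B receptor, was at 1.58 ± 0.217 CPM in *Ebf2*+/+ and 1.70 ± 0.127 CPM in *Ebf2* E165X/+ mice (SD, n = 3 each).

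The other genes with an unadjusted *P* under 0.05 had smaller differences, and none passed after adjustment (edgeR adjusted *P* = 0.783 for each). *Itpr2*, an IP3 receptor, had a log2 fold change of −0.28 (SE 0.09). *Letm1* and *Mcur1*, which act in ion exchange and calcium uptake at the inner mitochondrial membrane, had −0.37 (SE 0.12) and −0.26 (SE 0.08). The store-operated calcium entry genes *Stim2*, a calcium sensor of the reticulum, and *Orai2*, a channel of the plasma membrane, had 0.20 (SE 0.08) and 0.27 (SE 0.10). Genes of the muscle reticulum instead had their highest level in *Ebf2* E165X/+ mouse 3, such as *Atp2a1* at 7979.7 CPM and *Ryr1* at 1002 CPM, where the highest of the other mice measured 1159 and 141 CPM.

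Values of *Ebf2* and of thermogenic genes in the same libraries are given beside those of the 9 genes. *Ebf2* itself measured 38.3, 41.3 and 37.2 CPM in *Ebf2*+/+ mice and 22.8, 22.9 and 21.1 CPM in *Ebf2* E165X/+ mice (log2 fold change −0.81, SE 0.08, edgeR adjusted *P* = 0.0596). *Ucp1* measured 10.8, 21.3 and 33.0 CPM in *Ebf2*+/+ mice and 0.259, 0.264 and 0.617 CPM in *Ebf2* E165X/+ mice (log2 fold change −5.83, SE 0.55, edgeR adjusted *P* = 0.0596). *Cidea*, a lipid droplet protein of brown and beige adipocytes, fell from 96.9 ± 12.7 to 10.3 ± 2.69 CPM (SD, n = 3 each, log2 fold change −3.24, SE 0.20, edgeR adjusted *P* = 0.00462). The groups were apart for all 3 genes, and *Ebf2* E165X/+ mouse 3 was low with the others of its genotype. Over the 11 brown and beige adipocyte markers, 1 was called by edgeR, beside 0.00918% of all genes, and 6 were lower at an unadjusted *P* under 0.05, beside 3.09%, with a median log2 fold change of −0.81. Without *Ebf2* E165X/+ mouse 3, edgeR called 2, beside 0.0343% of all genes, 7 were lower at an unadjusted *P* under 0.05, beside 3.54%, and the median was −1.26. No test was made of a difference between these markers and the 9 genes of the creatine and calcium cycles.

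For the remaining members, the genes most alike in level over the 6 libraries were of varied kinds. For *Ckb* they were *Puf60*, *Snrpd1* and *Hdac5* (Pearson *r* of log2 CPM 0.988, 0.988 and 0.984), of which the first 2 encode splicing proteins. For *Gatm* they were *Ankrd29*, *Neu3* and *Rrp7a* (0.999, 0.997 and 0.996), and for *Gamt* they were *Pacs2*, *H2ac6* and *Hdx* (0.997, 0.995 and 0.994). For *Ryr2* the nearest was *Kdm4c* (0.992), a histone demethylase. With 6 libraries and 18904 genes to choose from, coefficients of this size are a description of these mice, which differ in muscle content as well as in genotype.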

How the data were processed

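RNA of the IWAT of 3 *Ebf2*+/+ and 3 *Ebf2* E165X/+ mice was examined, 1 library per mouse, and libraries were assigned to genotypes by their labels. The authors deposited expected counts per gene, estimates of fragment numbers not scaled for library size, and all 332946 values were whole numbers, so rounding changed none. The submitters' processing notes name cutadapt 4.8, FastQC 0.11.8, STAR 2.7.8a, RSEM 1.3.3, MultiQC 1.20 and GRCm38. The labels name an NEB library kit, whereas the study's methods name QuantSeq 3′ libraries, and values per kb depend on which was used. Exon lengths and positions were taken from GENCODE M21 on GRCm38, which holds 55141 of the 55491 identifiers, and promoters from RefSeq on GRCm38.p6.

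Genes counted in no library were dropped, and the rest were tested with edgeR 4.0.16 in R 4.3.3 (TMM factors, glmQLFit and glmQLFTest, genotype as the only term), with Benjamini-Hochberg adjustment over all genes. Calls required a linear fold change above 1.5 and an adjusted *P* under 0.05, the thresholds of the study's methods. The count test, like those of DESeq2 1.42.0 and limma 3.58.1, was tested on simulated data. For shares of counts, two-sided exact permutation tests of the means were run in Python 3.11.15, with adjustment over 13 marker lists. Logarithms of CPM use a prior count of 2. Total counts were 106820505 or more per library, and standard errors include both counting error and mouse-to-mouse spread. No source says that the mice of a genotype came from separate litters, so *P* values measure the spread between these mice.

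The 9 genes, the lists of other creatine and calcium genes and the marker lists were chosen with earlier results of these data known. The genes named are the 9 members, the genes of both other lists with an unadjusted *P* under 0.05 or without overlap, *Ckm*, *Atp2a1*, *Ryr1* and *Sln*, the marker genes, *Ebf2*, *Ucp1* and *Cidea*, and up to 3 genes per member with the highest Pearson correlation of log2 CPM. Other calcium genes, *Phospho1*, *Slc16a12* and the alkaline phosphatases were named after their values were seen, and the sequence CAGCTG was likewise added then. Alternatives were DESeq2, limma-voom, DESeq2's size factors, filterByExpr, a minimum of 10 counts throughout, the replicate number as a block, a term for the fast muscle markers, no threshold on fold change, each mouse left out in turn, and, for shares, a log2 scale and counts not scaled by length. DESeq2 and limma-voom without *Ebf2* E165X/+ mouse 3 were added after the data were seen.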

Additional observations from a re-analysis of the deposited data

How the results depend on the processing

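Of 16 alternative settings, 15 called 0 of the 9 genes, and DESeq2 without *Ebf2* E165X/+ mouse 3, chosen after the data were seen, called 1, *Alpl* (log2 fold change −0.59). *Ckmt1* could not be called in every setting. It was not tested with a minimum of 10 counts throughout, and DESeq2 over all 6 mice gave it no adjusted *P*. Of 134 fold changes of the 9 genes under alternatives, 118 had the sign of the first fit and 16 the other. *Ckmt2* was at −1.11, −1.12 and −1.10 without mouse 3 in edgeR, DESeq2 and limma-voom. In the same order *Gamt* was at −0.22, −0.23 and −0.19, *Slc6a8* at −0.21, −0.22 and −0.22, and *Atp2a2* at −0.10, −0.11 and −0.10. Over all 6 mice, limma-voom gave 0.67 for *Ckmt2* and 0.30 for *Slc6a8*, where edgeR gave 2.30 and 0.48. Leaving out 1 mouse at a time, the log2 fold change ran from −0.13 to 0.04 for *Ckb*, −4.13 to −1.19 for *Ckmt1*, −1.11 to 3.197 for *Ckmt2*, 0.11 to 0.29 for *Gatm*, −0.22 to 0.43 for *Gamt*, −0.21 to 0.76 for *Slc6a8*, −0.58 to −0.20 for *Alpl*, −0.10 to 0.28 for *Atp2a2* and −0.0037 to 0.29 for *Ryr2*. *Ckb* was above 0 without *Ebf2*+/+ mouse 1 (0.039) or *Ebf2* E165X/+ mouse 1 (0.039), *Gamt* below 0 without *Ebf2*+/+ mouse 3 (−0.042), and *Ryr2* below 0 without *Ebf2* E165X/+ mouse 2 (−0.0037).

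Over all genes, edgeR called 3, DESeq2 98, edgeR with the muscle term 18, and edgeR with a mouse left out 1 to 11, the most without *Ebf2* E165X/+ mouse 3 and the fewest without *Ebf2*+/+ mouse 2. Without mouse 3, DESeq2 called 158 and limma-voom 9. Of the other creatine and calcium genes, DESeq2 called 1, *Adra1a*, and without mouse 3 also 1, *Phospho1*. The difference in fast muscle share was 1.03 percentage points and ran from −0.186 without mouse 3 to 1.70. The difference in the *Ckb* share of creatine kinase, 3.04 percentage points, ran from −6.74 without *Ebf2* E165X/+ mouse 2 to 10.3 without mouse 3, was −0.925 without *Ebf2*+/+ mouse 2, and was −0.57 on the log2 scale. The difference in the *Atp2a2* share of SERCA, 0.0129 percentage points, ran from −9.27 to 8.71 with a mouse left out, was −4.48 and −0.764 without *Ebf2*+/+ mice 2 and 3, −2.16 from counts not scaled by length, and −0.56 on the log2 scale. The causes of these shifts were not tested.

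The labels do not say what the replicate numbers mark, so the numbers were not taken as pairs. Deviations of mice with the same number had *r* = 0.15, −0.28 and −0.16 over 18905 genes. The highest *r* of any pair, 0.39, was that of *Ebf2*+/+ mouse 2 and *Ebf2* E165X/+ mouse 3. Each of these was the richest in muscle RNA of its genotype. Whether mice with the same number shared a litter or batch could not be told from these values. With the replicate block, edgeR called 2 genes in all and 0 of the 9, and the log2 fold change was 0.76 for *Ckmt2*, −0.36 for *Alpl* and −2.22 for *Ckmt1* (SE 0.55, edgeR adjusted *P* = 0.941), which was the 1 member with an unadjusted *P* under 0.05 in that fit. Over all genes, 1281 had such a *P* with the block and 1557 in the first fit. With 3 mice per genotype, 1 of them rich in muscle RNA, intervals were wide for *Ckmt1* and *Ckmt2* and narrow for *Ckb* and *Gatm*.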

Other observations

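Other marker lists were compared by their share of counts, with two-sided exact permutation tests adjusted over 13 lists. The share of the 11 brown and beige adipocyte markers was 0.0224% ± 0.00327 in *Ebf2*+/+ and 0.00844% ± 0.00205 in *Ebf2* E165X/+ mice (SD, n = 3 each), without overlap (exact permutation *P* = 0.1, the smallest 3 mice against 3 can give, adjusted *P* = 0.433). Heart muscle markers, with *Myh6* the most abundant in the muscle-rich library, took 0.000245% ± 3.22e-05 and 0.000857% ± 0.000838, and B and T cell markers 0.0393% ± 0.00929 and 0.0505% ± 0.00575, both also without overlap at an exact permutation *P* of 0.1 and an adjusted *P* of 0.433. Adipocyte markers took 1.68% ± 0.152 and 1.44% ± 0.378, and were lowest in *Ebf2* E165X/+ mouse 3 at 1.01%. These adipocyte shares, and those of adipose progenitor (0.595% and 0.659%), endothelial (0.103% and 0.0935%), macrophage (0.0660% and 0.0737%), neutrophil (0.00372% and 0.00493%), smooth muscle (0.0349% and 0.0437%), Schwann cell (0.0381% and 0.0435%), slow muscle (0.00724% and 0.0241%) and epithelial markers (0.00344% and 0.00120%) had exact permutation *P* values from 0.2 to 0.7, with adjusted *P* values from 0.487 to 0.758. Without *Ebf2* E165X/+ mouse 3, the *Ebf2* E165X/+ mean was 0.00372% for slow muscle markers, then below that of *Ebf2*+/+ mice, and 0.000374% for heart muscle markers.

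The 9 creatine and calcium cycle genes together took 0.0388%, 0.0385% and 0.0353% of counts in *Ebf2*+/+ mice 1 to 3 and 0.0358%, 0.0375% and 0.0702% in *Ebf2* E165X/+ mice 1 to 3, and *Atp2a2* supplied 52.9% to 71.9% of them. *Zic1*, a transcription factor gene used as a brown fat marker, had its highest value in the muscle-rich library, at 2.39 CPM against 0.0641 to 0.361 CPM in the others.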
